A study of Mus musculus with 5 samples.

Results

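Immediate early genes were examined as a group of 10 genes, Fos, Fosb, Jun, Junb, Jund, Egr1, Atf3, Ier2, Ier3 and Nr4a1, among the 32285 genes of one mouse kidney single-cell matrix. The members were found by gene symbol, each symbol matched 1 row, and the rule uses no measured value. The study followed the mouse kidney from acute kidney injury (AKI) into chronic disease after unilateral ischemia-reperfusion (UIR), in which the left renal pedicle was clipped and the right kidney left intact. Its 5 samples were a sham kidney and AKI kidneys at day 1, day 3, day 14 and day 28, all from male C57BL/6J mice aged 6 to 8 weeks when obtained, with each kidney sample taken from 3 mice. Every kidney, sham included, was digested with collagenase I, collagenase IV and hyaluronidase at 37 °C for 40 min before the cells were captured. The barcodes of the deposited matrix carry 5 suffixes, called library 1 to library 5 here, and nothing ties a suffix to a sample. The study's methods describe a merge of more matrices than there are suffixes, so how mice fall into libraries cannot be told here. All values are therefore given per library with no time point, nothing was tested between libraries, and the matrix counts as 1 sample.

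Immediate early genes are switched on within minutes of a stimulus without new protein synthesis, through kinases that act on factors already bound at their promoters. Most encode transcription factors, and their mRNAs are short-lived. In kidney they respond to ischemia and growth factors, and they also respond to warm enzymatic digestion of tissue, which every sample here underwent. Fos and Fosb proteins pair with Jun, Junb or Jund to form the AP-1 factor. Egr1 is a zinc finger factor, Atf3 a stress-induced ATF/CREB family factor and Nr4a1 an orphan nuclear receptor. Ier2 and Ier3 are early response genes outside these families, and Ier3 is tied to cell survival.

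The matrix held 10474594 barcodes, of which 70552 were called as cells and 57827 passed the limits of 200 genes and 25% mitochondrial UMIs. The kept cells held 319864038 UMIs, with a median of 4599 per cell, and the libraries kept from 8301 to 19114 cells each. A total of 356 barcode sequences were kept in more than 1 library, on 713 cells. Cells were gated one by one on fixed markers, with no member among the markers, into 14 classes that held 51233 cells. Proximal tubule-like cells made up 45516 of the kept cells (78.7%), and 1 of their top 10 genes by fold, Slc27a2, was among their markers, against 4 to 6 in the other classes. A further 6571 cells stayed ungated, 3475 of them because a second class scored close to the first. The labels give the cell type as Goblet cell. No kept cell held 3 of the 7 goblet markers searched, and Muc2, the gel-forming mucin of goblet cells, had 21 UMIs in all. Levels are given as CPM, the UMI count of a gene normalised to all UMIs of the class. The intervals in brackets are exact 95% Poisson intervals on the summed UMIs and cover counting error only. The UMIs tag transcript 3′ ends, so levels are compared between cells and not between genes. Ambient level means the CPM in the low-count barcodes of a library, where free RNA dominates.

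Most members are short genes with few exons. In the GRCm38 annotation they had a median of 2 exons, against 7 over 21901 protein-coding genes, and 4 of the 10 (Jun, Junb, Jund and Ier2) had 1 exon, against 7.11% of protein-coding genes. The median gene span was 3810 bases for the members and 17336 bases over those genes, although Atf3 (47744 bases) and Nr4a1 (20527 bases, 8 exons) were longer than that. Fos lies at chr12:85473890-85477273 on the plus strand and Fosb at chr7:19302696-19310051 on the minus strand. Junb lies at chr8:84974484-84978718 on the minus strand and Nr4a1 at chr15:101254269-101274795 on the plus strand. The pentamer ATTTA, a core of AU-rich mRNA decay elements, occurred in the 3′ UTR of 9 members, all but Ier2, against 62.7% of genes with a 3′ UTR. It occurred 5 times in Ier3 and 4 times each in Fos and Jun, with a median density of 2.89 per kb over the members and 1.16 per kb over all genes.

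The promoters of 8 members were matched in the RefSeq promoter table (GRCm38.p6), with none for Egr1 and Ier2. The cAMP response element half-site TGACG, read on both strands, occurred in the 250 bases before the start of 5 of the 8 (Fos, Fosb, Junb, Nr4a1 and Atf3), against 17.8% of 32851 promoters. The full element TGACGTCA, which contains the half-site, was found in 0 of 8 (1.55% of promoters). The AP-1 motif TGANTCA was found in 0 of 8 (6.75%), and so was the CArG box bound by serum response factor (1.47%). GCGNGGGCG, an EGR-type motif, was in Fosb and Nr4a1 (4.70%), and TATAAA on the sense strand was in Fos (7.59%). These are descriptions of letters in a window and name no bound factor. The half-sites are printed because they were found in 5 of the 8 members searched, more than any other motif here. Each sequence is written 5′ to 3′ along the strand of its gene, with the half-site in capitals.
Fos, 129 bases before the start, chr12:85473751-85473775, plus strand: ggcgtagagtTGACGacagagcgcc
Fos, 66 bases before the start, chr12:85473814-85473838, plus strand: ttccgcccagTGACGtaggaagtcc
Fosb, 60 bases before the start, chr7:19310091-19310115, minus strand: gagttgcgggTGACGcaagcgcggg
Junb, 106 bases before the start, chr8:84978840-84978864, minus strand: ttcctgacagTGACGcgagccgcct
Nr4a1, 69 bases before the start, chr15:101266767-101266791, plus strand: gggccgtgtgCGTCAgtggcgcccc
Nr4a1, 40 bases before the start, chr15:101266796-101266820, plus strand: cctctccatgCGTCAcggagcgctt
None of the printed windows overlapped an annotated exon. The Atf3 half-site, 7 bases before the start, is not printed, and its window overlapped 1 annotated exon. The Nr4a1 windows lay inside the annotated span of the gene, upstream of the RefSeq start used here. Nr4a1 held 2 further half-sites, 233 and 213 bases before its start.

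UMIs of the 10 genes were counted in every gated class, at levels that differed widely between classes, and in some classes below the ambient level. Among classes with 3 or more libraries, no library exceeded the ambient level for Nr4a1 in proximal tubule-like cells, for Fosb, Jun, Egr1, Atf3 and Ier3 in T-like cells, and for Jun, Atf3 and Ier3 in NK-like and B-like cells. Their summed level was 5691 CPM in proximal tubule-like cells, with 3737, 6818, 6380, 5787 and 5198 CPM in libraries 1 to 5. It was 20788 CPM in endothelial-like cells and 18514 CPM in podocyte-like cells. In the pooled cells lymphoid and dendritic classes stood lowest, with 4416 CPM in T-like, 4322 CPM in B-like, 3895 CPM in dendritic-like and 3790 CPM in NK-like cells. That order did not hold in library 1, where T-like (5660 CPM) and B-like cells (4211 CPM) stood above proximal tubule-like cells. In their other libraries both stood below them, and T-like cells went down to 1883 CPM in library 5. Of the 10 genes 5 (Fos, Jun, Junb, Egr1 and Ier3) had their highest level in endothelial-like cells, a count that was 9 with the first cell calling step alone and 8 with Leiden clusters in place of gates. How many of all genes had their highest level there was not counted, so these counts are not read as a result about the members. Many genes stood high there, with 35.4% of 9784 genes at least 2-fold over proximal tubule-like cells. The podocyte-like class held 74 cells, 44 of them in library 2, so its level is close to a value of that library.

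**Figure D1:**
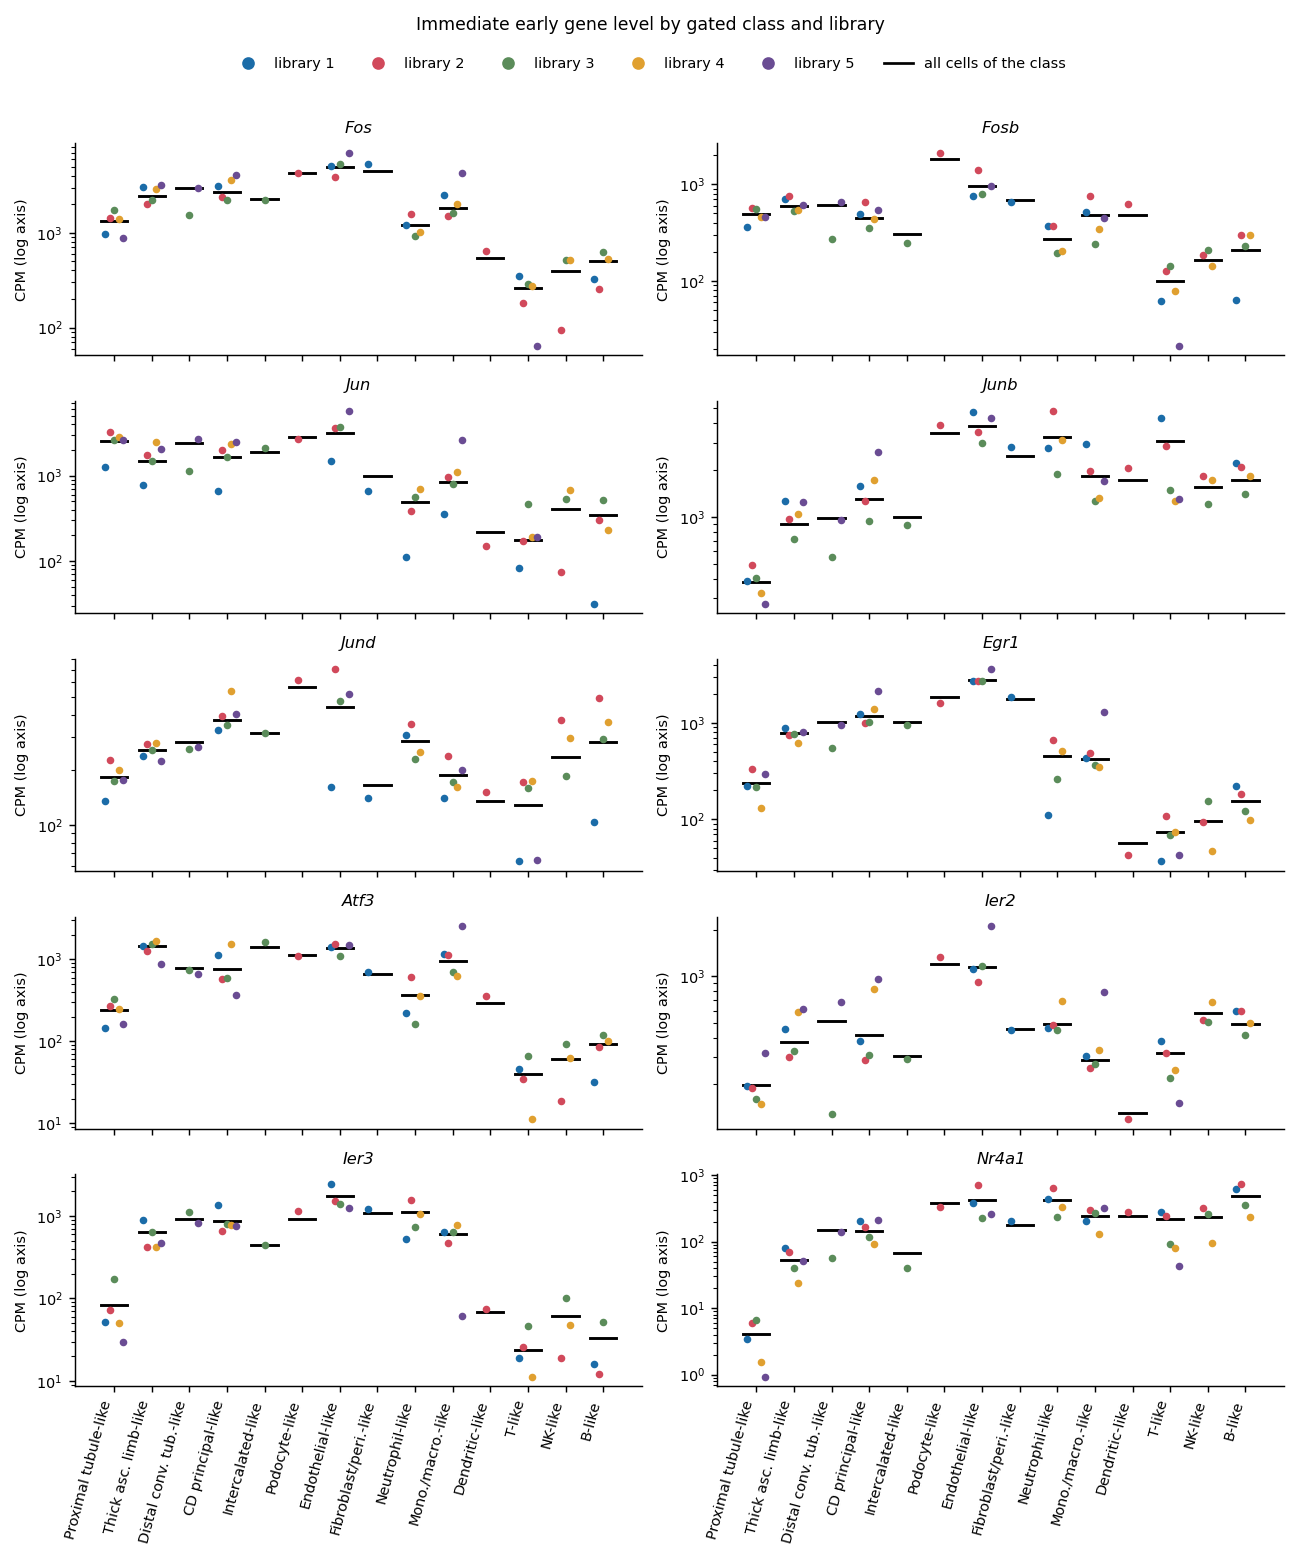
Level of each immediate early gene by gated class, in CPM on a log axis whose range differs between panels. Points are libraries with at least 20 cells of the class and bars are all cells of the class pooled; Junb and Nr4a1 had their lowest bars in proximal tubule-like cells, while Fos, Fosb, Jun, Jund, Atf3 and Ier3 had theirs in T-like cells.

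Fos, the founding AP-1 subunit, was at 1329 CPM [1325 to 1334] in proximal tubule-like cells. Libraries 1 to 5 held 979.8, 1421, 1741, 1408 and 883 CPM, so library 3 was highest and library 5 lowest. In endothelial-like cells Fos stood at 4912 CPM [4814 to 5011], from 3834 CPM in library 2 to 6935 CPM in library 5, and no endothelial-like library overlapped a proximal tubule-like one. Thick ascending limb-like cells lay between them at 2433 CPM, with libraries from 2029 to 3214 CPM. Monocyte/macrophage-like cells held 1846 CPM, but their libraries ran from 1500 to 4256 CPM, and 45 cells of library 5 gave the highest. T-like cells had the lowest Fos level, 259 CPM [238 to 282], and Fos exceeded the ambient level in 1 of the 5 T-like libraries.

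Fosb, a FOS family subunit, was at 491 CPM [488 to 494] in proximal tubule-like cells, with libraries from 365 CPM in library 1 to 573 CPM in library 2. Podocyte-like cells held 1839 CPM [1679 to 2009] and endothelial-like cells 969 CPM [926 to 1013]. Thick ascending limb-like cells held 602 CPM, and the monocyte/macrophage-like level of 488 CPM had a counting interval that overlapped the proximal tubule-like one. T-like cells were lowest at 99.7 CPM, and Fosb exceeded the ambient level in 0 of 5 T-like libraries.

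Jun, the core transactivating JUN subunit, was the member on which proximal tubule-like cells stood high against most other classes. It was at 2542 CPM [2536 to 2548] in proximal tubule-like cells, and libraries 1 to 5 held 1258, 3238, 2624, 2823 and 2595 CPM. Library 1 was therefore the lowest, below 0.5 of each of the other libraries. Only endothelial-like cells (3136 CPM) and podocyte-like cells (2854 CPM) had a higher pooled level, and in library 2, the only one with 20 podocyte-like cells, podocyte-like Jun was below proximal tubule-like Jun by a log2 ratio of −0.28. Thick ascending limb-like cells held 1481 CPM, monocyte/macrophage-like cells 841 CPM and neutrophil-like cells 490.1 CPM. In T-like cells Jun was at 175 CPM [158 to 194], 0.07 times the proximal tubule-like level, and it exceeded the ambient level in 0 of 5 libraries.

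Junb, a JUN subunit that can oppose Jun, was also highest in endothelial-like and podocyte-like cells, but differed from Jun in other classes. Its proximal tubule-like level of 379.9 CPM [378 to 382] was the lowest of the 14 classes, with libraries at 387, 493, 401, 322 and 277 CPM. T-like cells held 3077 CPM [3004 to 3152], neutrophil-like cells 3262 CPM [3169 to 3358] and endothelial-like cells 3845 CPM [3759 to 3933]. The T-like libraries were at 4344, 2872, 1495.1, 1262 and 1305 CPM, so libraries 1 and 2 stood above the others, yet all 5 lay above every proximal tubule-like library. Junb exceeded the ambient level in 5 of 5 T-like libraries and in 3 of 5 proximal tubule-like ones.

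Jun and Junb went in opposite directions between leukocyte classes and proximal tubule-like cells. Against proximal tubule-like cells, T-like cells had a log2 ratio of −3.86 [−4.01 to −3.71] for Jun and 3.02 [2.98 to 3.05] for Junb. Each of the 5 libraries gave the same directions, from −4.24 to −2.51 for Jun and from 1.90 to 3.49 for Junb. Neutrophil-like cells had −2.37 for Jun and 3.10 for Junb, and the 4 libraries with at least 20 of these cells gave the same directions, although neutrophil-like Jun exceeded the ambient level in 1 of the 4. In endothelial-like cells both subunits were higher than in proximal tubule-like cells, by 0.30 for Jun and 3.34 for Junb.

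Jund, the JUN subunit that many cells hold without a stimulus, varied least between classes. It was at 182 CPM [181 to 184] in proximal tubule-like cells, 441 CPM [412 to 471] in endothelial-like cells and 568 CPM [481 to 666] in podocyte-like cells. T-like cells were lowest at 128 CPM [114 to 144]. Of the 13 steps between neighbouring classes in the order of Jund levels, 11 had overlapping counting intervals.

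Egr1, the serum- and stress-induced zinc finger factor, was at 240.4 CPM [239 to 242] in proximal tubule-like cells, with 219.5, 332, 216, 131 and 299 CPM in libraries 1 to 5. Endothelial-like cells held 2782 CPM [2709 to 2857], and their libraries lay between 2724 and 3671 CPM. Podocyte-like cells held 1842 CPM, fibroblast/pericyte-like cells 1769 CPM and collecting duct principal-like cells 1172 CPM. Dendritic-like cells were lowest at 56.3 CPM, and Egr1 exceeded the ambient level in 0 of 5 T-like libraries.

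Atf3, a repressor and activator induced by stress, was highest in thick ascending limb-like cells. These held 1441 CPM [1409 to 1475] and libraries of 1447, 1275, 1525, 1664 and 885 CPM. Intercalated-like cells held 1397 CPM and endothelial-like cells 1364 CPM, and the counting intervals of neighbours in this top group overlapped. Proximal tubule-like cells held 240.2 CPM [238 to 242], from 144 CPM in library 1 to 328 CPM in library 3, so no library of the 2 tubule classes overlapped. T-like cells held 39.7 CPM, and Atf3 exceeded the ambient level in 0 of their 5 libraries.

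Ier2, a small early nuclear protein, was at 198 CPM [196 to 199.5] in proximal tubule-like cells, where library 5 with 316 CPM stood above the other 4 (147 to 194 CPM). Podocyte-like cells held 1207 CPM and endothelial-like cells 1157 CPM, with counting intervals that overlapped. NK-like, B-like and neutrophil-like cells held 575, 491 and 490.1 CPM, and dendritic-like cells were lowest at 129.9 CPM [99.1 to 167].

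Ier3, a survival-linked early gene, was highest in endothelial-like cells, at 1759 CPM [1700 to 1818], against 84.0 CPM [82.9 to 85.1] in proximal tubule-like cells. The endothelial-like libraries held 2444, 1525, 1406 and 1239 CPM in libraries 1, 2, 3 and 5. The proximal tubule-like libraries held 51.7, 73.2, 172, 50.4 and 30.03 CPM, and library 3 stood apart as the highest. Only that library exceeded its ambient level, and in the other 4 Ier3 was below it. Neutrophil-like cells held 1109 CPM, while T-like and B-like cells held 24.0 and 33.6 CPM.

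Nr4a1, a nuclear receptor induced by antigen receptor signaling in lymphocytes, was close to absent from proximal tubule-like cells. It stood at 4.01 CPM [3.77 to 4.26] there, with 3.47, 5.89, 6.70, 1.54 and 0.93 CPM per library, below the ambient level of 7.0 to 48.1 CPM in every library. B-like cells held 489 CPM [430 to 554], endothelial-like cells 423 CPM [395 to 453] and neutrophil-like cells 423 CPM [390 to 458], with overlapping counting intervals. T-like cells held 219 CPM, in libraries of 280.2, 239, 92.7, 78.9 and 42.8 CPM, and Nr4a1 exceeded the ambient level in all 5.

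The members were then counted against proximal tubule-like cells, the largest class, with a change called at 2-fold or more. The share of all genes called in the same comparison is given beside each count. In endothelial-like cells 8 of 10 members were at least 2-fold higher, where 35.4% of 9784 genes were, and 0 were lower, where 19.2% were. The exceptions were Jun and Fosb, with log2 ratios of 0.30 and 0.98. In podocyte-like cells 9 members were higher (25.8% of genes) and 0 lower (13.6%). In fibroblast/pericyte-like cells 7 were higher (31.8%) and Jun was lower (19.0%), though without library 1 no member was at least 2-fold lower.

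In the distal tubule classes no member passed the 2-fold limit downwards in the pooled cells. Members higher numbered 5 in thick ascending limb-like cells (19.9% of genes), 7 in distal convoluted tubule-like cells (19.0%), 8 in collecting duct principal-like cells (25.7%) and 5 in intercalated-like cells (23.0%). Members lower numbered 0 in each, against 14.5%, 15.6%, 14.2% and 15% of genes. Jun lay below the proximal tubule-like level without reaching that limit, with log2 ratios of −0.78 in thick ascending limb-like and −0.64 in collecting duct principal-like cells, lower in 5 of 5 libraries of each. In thick ascending limb-like cells the log2 ratio was 2.59 for Atf3, from 2.22 to 3.33 over 5 libraries, and 2.92 for Ier3, from 1.90 to 4.10. Of the 204 distal convoluted tubule-like cells 143 came from library 5, and in library 3, the other one with 20 cells, the log2 ratio was −0.17 for Fos and −0.31 for Ier2, against 1.15 and 1.38 pooled. Library 3 also gave −1.02 for Fosb and −1.22 for Jun in distal convoluted tubule-like cells and −1.18 for Fosb in intercalated-like cells. Without library 4 the collecting duct principal-like count was 5.

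Among leukocytes the counts split. Neutrophil-like cells had 4 members higher (19.6% of genes) and Jun lower (42.8%). With Leiden clusters in place of gates the neutrophil-like count of members lower was 0, and without library 2 it was 2. Monocyte/macrophage-like cells had 4 higher (21.9%) and Jun lower (29.6%). Dendritic-like cells had 2 higher (19.1%) and 3 lower (36.2%), and the 3 (Fos, Jun and Egr1) did not exceed the ambient level in library 2, the only one with 20 of these cells. T-like cells had 2 higher (24.5%) and 6 lower (30.8%), NK-like cells 3 higher (16.9%) and 5 lower (22.7%), and B-like cells 3 higher (17.5%) and 5 lower (29.8%). With Leiden clusters the members lower were 0 in NK-like and 1 in B-like cells, so these calls depend on how the classes were made. Junb was at least 2-fold higher in each of the 13 classes compared, and Jun in none. Nr4a1 was also called higher in each, but at 4.01 CPM it could pass the 10 CPM minimum only through the other class, so it adds 1 to every count of members higher and those calls carry no information. In proximal tubule-like cells Ier3 exceeded the ambient level in 1 of 5 libraries and Junb in 3 of 5, neither by 2-fold in any. Ratios of Ier3 and Junb therefore set other classes against a level near or under the ambient one. In T-like cells 5 of the 6 members lower were below the ambient level in every library, and Fos in 4 of 5. The median log2 ratio of the members was 2.53 in endothelial-like and −1.76 in T-like cells, against 0.49 and −0.10 over all genes tested. The gates use no depth, but the classes differed in it, with median UMIs per cell of 5162 in proximal tubule-like, 3383 in endothelial-like and 1733 in T-like cells. Median mitochondrial shares were 11%, 4.53% and 6.28% in the same order. The part of these differences in the counts was not tested, and ratios after thinning each cell to 1000 UMIs were among the alternatives.

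Other early response genes were read from fixed lists. The list called feedback regulators held 20 genes, among them phosphatases and mRNA decay factors but also early genes of other kinds, such as Mcl1 and Sgk1. Of these, 19 were tested in endothelial-like cells, where 14 were at least 2-fold higher and 0 lower. All endothelial-like counts here compare with the 35.4% and 19.2% of all genes given above. Zfp36, an mRNA decay factor, went from 303 to 1214 CPM, and Socs3, a cytokine signaling inhibitor, from 18.7 to 904 CPM. Dusp1, a phosphatase that turns off MAP kinases, did not pass, at 622 and 948 CPM. A gene under 10 CPM in one class could be tested only because it was higher in the other, and such genes are set apart here: 1 of these 14 (Tnfaip3) was under that minimum in proximal tubule-like cells. Of 12 other early transcription factors 8 were higher, 4 of them (Egr2, Egr3, Nr4a2 and Nr4a3) under the minimum, and Myc was lower. Klf4, a zinc finger factor of endothelium, was at 2083 CPM against 195 CPM. Of 5 tested AP-1 and ATF relatives 4 were higher (Fosl2, Atf4, Mafk and, under the minimum, Maff), and of 9 early secreted products and enzymes 6 were higher, all but Cxcl2 under the minimum in proximal tubule-like cells, and Ccn1 was lower. Of 11 tested upstream kinases and factors 7 were higher and Srf was lower, of which Mrtfa and Srf were under the minimum in one class. Of 13 heat shock genes 5 were higher, among them Hspa1a (1337 against 79.2 CPM), and 3 were lower, which is near the share of all genes. Of 6 reference genes 2 were higher, Eef1a1 and Eef2, and none lower.

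In neutrophil-like cells 15 of 20 feedback regulators were higher and 3 lower, where 19.6% and 42.8% of all genes were, and 13 of the 15 were over the minimum in both classes. Cxcl2, a neutrophil-attracting chemokine, was at 13791 CPM against 28.6 CPM, and Nfkbia, the inhibitor of NF-κB, at 3715 CPM against 102 CPM. Of 13 heat shock genes 0 were higher and 9 lower there, with Bag3 under the minimum. In T-like cells 10 of 20 feedback regulators were higher and 6 lower, where 24.5% and 30.8% of all genes were, and 8 of the 10 were over the minimum in both classes. Btg2, an antiproliferative early gene, was at 1515 CPM against 332 CPM, and Dusp1 at 239 CPM against 622 CPM. These lists were chosen with earlier results of these data known.

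The libraries differed within a class, and some members kept the same library at an extreme across classes. These extremes were counted for the members only, so how often other genes do the same is not known here. Over the 9 classes with at least 20 cells in 3 or more libraries, Jun was lowest in library 1 in 8. In monocyte/macrophage-like cells Jun was at 357, 954.6, 800.5, 1095 and 2593 CPM in libraries 1 to 5. In endothelial-like cells it was at 1492, 3654, 3680 and 5748 CPM in libraries 1, 2, 3 and 5. In T-like cells it was at 82.4, 171, 459.7, 192 and 193 CPM. Library 1 was lowest in each, as it was in proximal tubule-like cells. The ambient Jun level was also lowest in library 1, at 229.8 CPM against 999.6, 555, 897 and 526 CPM in libraries 2 to 5. Jun exceeded the ambient level in no T-like, B-like or NK-like library and in 1 of 4 neutrophil-like ones. In T-like, B-like and neutrophil-like cells the low level in library 1 therefore cannot be told apart from the low ambient level there. NK-like cells numbered 18 in library 1 and gave no value there. Jun exceeded the ambient level in all libraries of the proximal tubule-like, thick ascending limb-like, collecting duct principal-like and endothelial-like classes. In monocyte/macrophage-like cells it exceeded that level in 4 of 5 libraries, and was at least 2-fold over it in 1. Library 2 was the one below, at 954.6 CPM against an ambient 999.6 CPM.

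The extremes of other members differed. Junb was lowest in library 3 in 7 of the 9 classes and highest in library 1 in 5. Jund was lowest in library 1 in 6 and highest in library 2 in 6, and Fosb was highest in library 2 in 6. Ambient Jund was also lowest in library 1, at 52.2 CPM against 153, 99.5, 186 and 98.7 CPM in libraries 2 to 5. Jund exceeded the ambient level in 3 of 5 T-like and 4 of 5 monocyte/macrophage-like libraries, and in all libraries of the other classes counted. Fos was highest in library 5 in 4 and lowest in library 2 in 5. Among members at 50 CPM or more, the highest library was at least 2-fold over the lowest for 5 of 9 in proximal tubule-like cells, where 18.6% of genes were. These 5 were Jun, Egr1, Atf3, Ier2 and Ier3. The same count was 4 of 10 in thick ascending limb-like cells (40.4% of genes), 4 of 10 in endothelial-like cells (35.4%), 6 of 10 in neutrophil-like cells (54.7%), 9 of 10 in monocyte/macrophage-like cells (54.2%) and 8 of 8 in T-like cells (54.5%). Of the 8 T-like members, Fosb, Jun and Egr1 exceeded the ambient level in 0 of 5 T-like libraries and Fos in 1 of 5. For these the count rests on levels mostly under the ambient one. Library 5 held 45 monocyte/macrophage-like and 23 T-like cells, and without it the monocyte/macrophage-like count was 4. In proximal tubule-like cells the count without library 4 was 3, in endothelial-like cells it was 2 without library 1 or library 2, and in thick ascending limb-like cells it was 1 without library 1 and 2 without library 2. Other processing moved it too, to 8 in endothelial-like cells with Leiden clusters and 3 in monocyte/macrophage-like cells with the first calling step. In thick ascending limb-like cells it was 7 after thinning and 2 with a mitochondrial limit of 10%. Library, sample and time point cannot be told apart here.

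Proximal tubule-like cells were mixed in their early gene content. When each cell was thinned to 1000 UMIs, which left 40202 cells and dropped 5314 shallower ones, the median cell held 4 member UMIs, with quartiles of 1 and 8. No member UMI was found in 24.8% [24.3 to 25.2, exact binomial] of the cells, and 15.7% held 11 or more. The share with none was 39.0% and 41.3% in libraries 1 and 2, 13.6% and 13.3% in libraries 3 and 4, and 23.7% in library 5. In endothelial-like cells 4.0% of 300 cells held none, and the median was 18 UMIs. The median was 6 in thick ascending limb-like cells, 7 in monocyte/macrophage-like cells and 4 in T-like cells. Library 2 combined the highest share without member UMIs with the highest share at 11 or more, 21.3%, while library 1 had 6.01% at 11 or more.

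**Figure D2:**
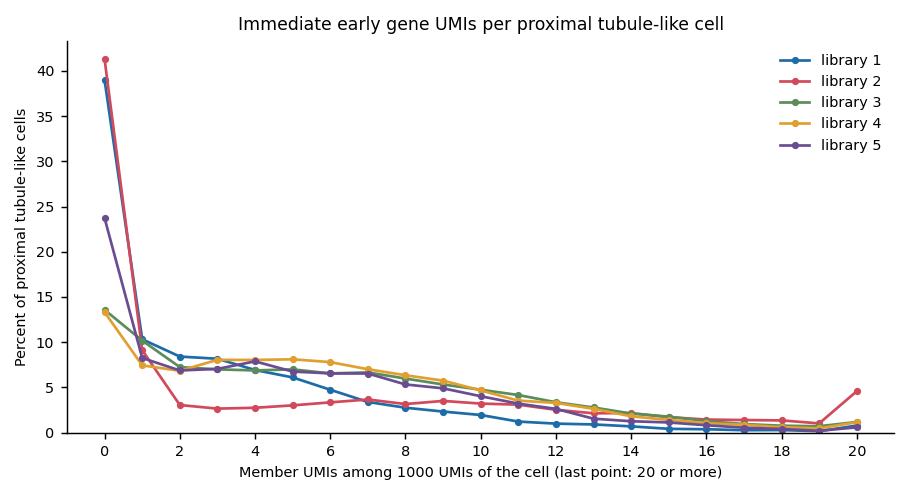
Percent of proximal tubule-like cells, thinned to 1000 UMIs each, by number of immediate early gene UMIs, one line per library; the last point collects 20 or more. Libraries 1 and 2 start near 40% at 0 UMIs and libraries 3 and 4 near 13%.

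Several members were spread widely over single proximal tubule-like cells. The Fano factor, variance over mean of the thinned counts, was 3.31 for Jun, 2.96 for Fos and 2.22 for Atf3, between 1.49 and 1.81 for Fosb, Junb, Egr1, Ier2 and Ier3, and 1.13 for Jund. Nr4a1 had too few UMIs to be placed. The median was 1.03 over the 2576 genes with a mean of at least 0.05 UMIs, and 99.1% of those genes were below Jun. That rank is not matched for level, the mean being 2.38 for Jun, and the counts pool the libraries. The spread was not particular to this class. Fos and Jun had 5.40 and 3.42 in monocyte/macrophage-like, 4.24 and 2.76 in endothelial-like, 2.22 and 2.88 in neutrophil-like and 2.71 and 1.74 in T-like cells.

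The early gene level went with that of Malat1, an abundant long noncoding RNA kept in the nucleus. This split was chosen after the data had been seen. Among the thinned proximal tubule-like cells, 5842 (14.5%) held no Malat1 UMI. The summed member level rose from 291 CPM [285 to 298] in these cells to 1068 CPM at 1 to 4 Malat1 UMIs, 4008 CPM at 5 to 14 and 7032 CPM [7021 to 7044] in the 26957 cells with 15 or more. The share of cells with no member UMI fell from 82.5% through 62.4% and 17.4% to 4.93%. Seen from the other side, of the 9952 cells with no member UMI 48.4% held no Malat1 UMI, 35.1% held 1 to 4 and 13.4% held 15 or more. The order of the 4 groups was the same within each library, from 298 to 5013 CPM in library 1, 212 to 9705 CPM in library 2, 673 to 7223 CPM in library 3, 369 to 6570 CPM in library 4 and 242 to 6270 CPM in library 5.

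**Figure D3:**
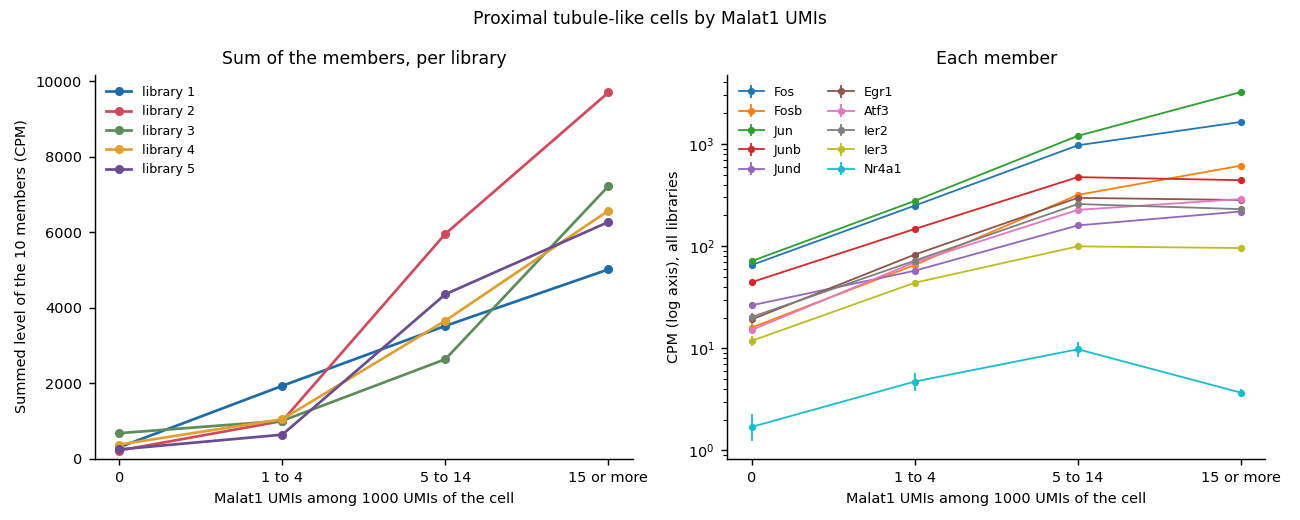
Immediate early gene level in proximal tubule-like cells by Malat1 UMIs among 1000 UMIs of the cell. Left, sum of the 10 genes in each library, from 212 to 673 CPM without Malat1 and from 5013 to 9705 CPM at 15 or more; right, each gene with all libraries pooled on a log axis and 95% Poisson intervals, where Junb, Egr1, Ier2, Ier3 and Nr4a1 were no higher at 15 or more Malat1 UMIs than at 5 to 14.

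All 10 members were lower without a Malat1 UMI. The summed level without Malat1 lay under the summed ambient level in every library, which was 1171, 3439, 2128, 3108 and 1665 CPM in libraries 1 to 5, so the ratios below set one group against a level under background. At 1 to 4 Malat1 UMIs the summed level was 1927, 995, 1000, 1042 and 633 CPM in libraries 1 to 5. It was therefore also under the ambient level in libraries 2 to 5. Without against with a Malat1 UMI, the log2 ratio was −5.32 [−5.38 to −5.25] for Jun, −5.10 for Fosb, −4.50 for Fos, −4.14 for Atf3 and −3.79 for Egr1. It was −3.43 for Ier2, −3.23 for Junb, −2.95 for Ier3, −2.93 for Jund and −1.28 [−1.75 to −0.84] for Nr4a1, which was below the 10 CPM needed to be counted. The other 9 members were at least 2-fold lower in the pooled cells, where 26.8% of 7608 genes were, and in each of the 5 libraries. The median over all genes tested was −0.40. Of the fixed lists, 18 of 18 tested feedback regulators, 8 of 8 other early transcription factors, 4 of 4 AP-1 and ATF relatives and 4 of 4 early secreted products were lower. So were 5 of 13 heat shock genes, 3 of 10 upstream kinases and factors and 0 of 5 reference genes, whose median was 0.25. Many of these genes were under 10 CPM without Malat1 and could be tested only because they were higher with it. Those over 10 CPM in both groups were 10 of the 18 feedback regulators, 1 of the 8 transcription factors (Klf6), 2 of the 4 AP-1 and ATF relatives, 3 of the 4 secreted products, 4 of the 5 heat shock genes and 0 of the 3 upstream factors. The 9 members called were over it in both. Neat1, another nuclear noncoding RNA and likewise chosen after its values were seen, had a log2 ratio of −5.98.

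Other measures moved with the split. The median mitochondrial share was 17.4% without Malat1 and 10.3% at 15 or more UMIs, and the median depth was 3654 and 6721 UMIs. Cells without Malat1 were 31.3%, 29.0%, 3.85%, 4.75% and 11.04% of libraries 1 to 5. Their part in the difference was not tested. In the proximal tubule-like cells with a Malat1 UMI, Jun was at 1544, 4006, 2735, 2947 and 2841 CPM in libraries 1 to 5. The part of the cells without Malat1 in the library levels of Jun was not tested. Thick ascending limb-like cells showed a like order, with 1143, 5566, 7571 and 9637 CPM over the same 4 groups, although the first held 27 cells. Endothelial-like cells did not, with 19180, 23197 and 20768 CPM from 1 to 4 Malat1 UMIs upwards. Monocyte/macrophage-like cells rose over the 4 groups, with 4500, 6207, 6508 and 10344 CPM, and T-like cells over the last 3, with 3216, 3748 and 4965 CPM.

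Clusters made without the members also differed in early gene level. Malat1, the mitochondrial genes and the other early genes were not left out of the clustering. The clusters are therefore no independent check of the Malat1 split. Of the 14 clusters with most of the proximal tubule-like cells, 4 had summed levels of 158, 371, 439 and 609 CPM and median mitochondrial shares of 18.3%, 16.7%, 14.9% and 12.4%. These levels lay under the summed ambient level of every library, the lowest being 1171 CPM. In the same order, 10 of 2862, 58 of 4125, 24 of 1227 and 246 of 3273 cells came from library 3. Median depths were 4476.5, 1698, 2397 and 1620 UMIs. Another cluster, of which 4629 of 5246 cells came from library 3, had 1436 CPM, a mitochondrial share of 8.47% and a median depth of 1091.5 UMIs. Its level also lay under the summed ambient level of library 3, 2128 CPM. The other 9 lay between 6219 and 7556 CPM, with median depths of 5116 to 9637 UMIs. The part of depth and library in these differences was not tested. Malat1 was at 1432 to 13087 CPM in the first 5 and at 43939 to 103443 CPM in the others.

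The members also fell with the mitochondrial share of the cell. In proximal tubule-like cells the summed level was 6734 CPM at 0 to 5%, 7557 CPM at 5 to 10%, 5919 CPM at 10 to 15%, 3793 CPM at 15 to 20% and 2115 CPM at 20 to 25%. Cells over the limit, which enter no other result, held 1582 CPM at 25 to 35%, 1654 CPM at 35 to 50% and 1042 CPM above that. Over against within the limit, 8 of 9 tested members were at least 2-fold lower, where 10.2% of genes were. With CPM taken over non-mitochondrial UMIs only, 6 were lower, where 1.65% of genes were. The decline held from the 5 to 10% range to the 20 to 25% range in each library, from 10058 to 1357 CPM in library 2 and from 7395 to 2743 CPM in library 4.

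In thick ascending limb-like cells the level went from 12922 CPM at 0 to 5% to 5377 CPM at 20 to 25% and 746 CPM above 50%, and 9 of 10 members were at least 2-fold lower over the limit (20.4% of genes). With non-mitochondrial UMIs 8 were (8.18%). Monocyte/macrophage-like cells stayed between 7677 and 7857 CPM from 0 to 20%. Endothelial-like cells held 22004, 17612 and 18642 CPM over the first 3 ranges, and T-like cells ran from 3460 to 5377 CPM without a steady order.

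**Figure D4:**
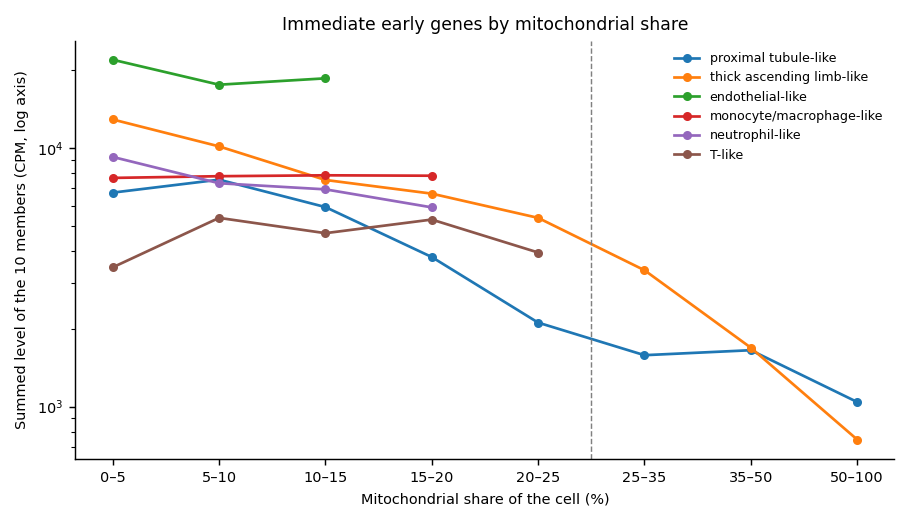
Summed level of the 10 immediate early genes (CPM, log axis) by mitochondrial share of the cell, for 6 gated classes; points hold at least 20 cells and the dashed line marks the 25% limit. Proximal tubule-like cells went from 7557 CPM at 5 to 10% to 2115 CPM at 20 to 25%, while monocyte/macrophage-like cells stayed between 7677 and 7857 CPM.

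Proximal tubule-like cells were split by a UMI of Havcr1, which encodes KIM-1, a receptor induced in damaged proximal tubule. A single UMI does not show that a cell expressed Havcr1. Its level in proximal tubule-like cells was 11.6, 22.1, 61.1, 15.3 and 0.77 CPM in libraries 1 to 5, against ambient levels of 3.71, 23.4, 93.1, 12.6 and 0.64 CPM, so it was below the ambient level in libraries 2 and 3. After thinning to 1000 UMIs 1.98% of proximal tubule-like cells held the UMI, against 2.86% of dendritic-like (2 of 70 cells), 1.84% of thick ascending limb-like, 1.67% of endothelial-like, 0.83% of T-like and 0.62% of monocyte/macrophage-like cells, so the share did not set proximal tubule-like cells apart from every other class. Before thinning the T-like share was 1.44% at a median depth of 1733 UMIs. Of the proximal tubule-like cells 3452 (7.58%) held a Havcr1 UMI, and 2490 of them came from library 3. Atf3 was at 534 CPM in cells with the UMI and 205 CPM in cells without it, a log2 ratio of 1.38 [1.36 to 1.41]. The ratio was 2.08, 1.79, 0.75, 1.42 and 1.24 in libraries 1 to 5, so Atf3 was higher in each and at least 2-fold higher in 4. Ier3 was at 213 and 68.7 CPM, a log2 ratio of 1.63 [1.59 to 1.67]. The libraries gave 0.84, 1.94, 0.68, 1.47 and 0.34, below the pooled ratio in 4 of 5. Library 3 gives most of the cells with Havcr1 and has the highest Ier3 level, so the pooled ratio also holds that difference between libraries. In library 5 the ratio rested on 13 UMIs and its interval, −0.57 to 1.12, spanned 0.

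The other members did not reach 2-fold in the pooled cells. Their pooled log2 ratios ran from −0.10 for Fosb to 0.39 for Nr4a1, with −0.07 for Jun and 0.22 for Fos. Fos was 0.31 in library 1 and −0.57 in library 5, so its direction was not shared. Within libraries 1, 2 and 4 some ratios were larger than the pooled ones, with 0.59, 0.70 and 0.50 for Junb, 0.28, 0.84 and 0.67 for Egr1, and 0.45, 0.60 and 0.58 for Ier2, whose pooled ratio was 0.01. Library 3 gave 0.07, 0.22 and 0.14 for these genes, and library 5, with 35 cells holding the UMI, gave −0.18, −0.17 and −0.27. Nr4a1 rested on 146 UMIs in cells with Havcr1. The 2 members called compare with 1.44% of 7754 genes at least 2-fold higher, and 0 members with 0.426% lower. Among the injury genes, Vcam1, an adhesion molecule, was at 34.6 and 5.56 CPM and Krt20, a keratin, at 8.61 and 1.62 CPM, under the 10 CPM minimum in both groups. Library 2 held 638 of the 991 Vcam1 UMIs in cells with Havcr1, and in library 3 Vcam1 was at 4.11 and 1.43 CPM. The log2 ratio of Krt20 was 0.64 in library 3. In library 5 cells with Havcr1 held 0 UMIs of either gene. Lcn2, a lipocalin, was at 32.8 and 15.8 CPM in the pooled cells, but its log2 ratio was −0.35 [−0.46 to −0.24] in library 3, which held 850 of its 941 UMIs in cells with Havcr1, and −0.73 on 5 UMIs in library 1. Median depth was 7131 UMIs with Havcr1 and 4999 without, and its part in these ratios was not tested.

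**Figure D5:**
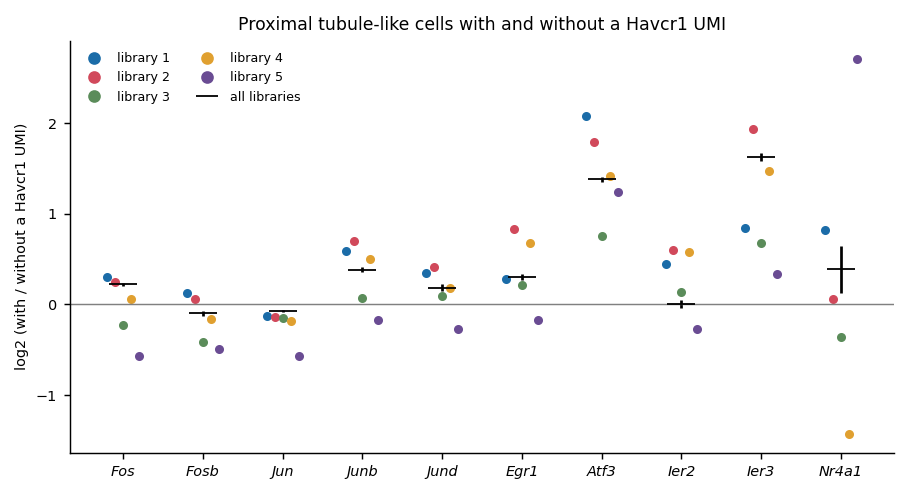
Log2 ratio of each immediate early gene in proximal tubule-like cells with over without a Havcr1 UMI. Points are libraries and bars are all libraries pooled with 95% intervals for counting error; Atf3 (1.38) and Ier3 (1.63) stand apart, and the point of library 5 rests on 35 cells with Havcr1.

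Over the 46 sums of class and library with at least 20 cells, the members did not move as one. On the log2(CPM + 1) scale Pearson's r was 0.92 for Fos and Atf3, 0.88 for Fos and Egr1 and 0.87 for Junb and Nr4a1. It was −0.32 for Jun and Junb and −0.40 for Jun and Nr4a1. These are descriptions over sums that share libraries and classes. Among 11340 other genes the pattern most like Fos was that of Rab13 (0.87), like Jun that of Mgat4b (0.88) and like Junb that of Ppp1r15a (0.84). For Egr1 it was Rab13 (0.91), for Ier3 Cd9 (0.90), for Atf3 Fndc3b (0.86), for Nr4a1 Iqgap1 (0.86), for Fosb Tcf7l2 (0.81), for Jund Ppp2ca (0.71) and for Ier2 Ppp3ca (0.69).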

How the data were processed

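Single-cell 3′ libraries (10x v3.1) were aligned by the authors to mm10 (Ensembl GRCm38.93) with Cell Ranger 6.0 (6.0.1 per the file header), and the deposited matrix holds raw UMI counts of all barcodes. Cells were called here per library with a UMI limit and then a test against ambient barcodes (FDR 0.01, at least 500 UMIs), and the limits stated in the study's methods, at least 200 genes and at most 25% mitochondrial UMIs, were applied. Kept cells held 51131281 to 94962525 UMIs per library, with medians of 4038 to 5324 per cell. A cell was gated with at least 3 markers of a class and a second class scoring at most 0.5 of the first. Counts were summed per class and library, with at least 20 cells. A gene was counted in a ratio at 10 CPM and 10 UMIs in either group. Intervals were exact Poisson (levels), Clopper-Pearson (shares) or conditional binomial (ratios), at 95%. The suffixes are tied to no sample, so the matrix was treated as 1 pooled sample and no test was run. Doublets were kept. The threshold Scrublet set itself marked under 0.5% of cells in libraries 1, 4 and 5, so removal at a fixed rate was the alternative. Leiden clusters were made without the members. Genes named by rule were the members, fixed lists of related genes, the genes most like each member (the first of 3 is printed) and 4 injury genes, beside cell type markers. Malat1 and Neat1 were chosen after their values were seen. The members and lists were chosen with earlier results of these data known. Scripts were tested on simulated data. Python 3.11.15, numpy 2.4.6, scipy 1.17.1, pandas 2.3.3, scanpy 1.11.5 and leidenalg 0.10.2 were used.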

Additional observations from a re-analysis of the deposited data

How the results depend on the processing

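No paired test was run, because the barcode suffixes are tied to no sample and carry no replicate numbers, and no result comes from a test. Ratios within each library were given as values only. Counts of members were recomputed under other cell calling, gates, limits, denominators, averages, thinning, doublet removal and clusters, and with each library left out, and 537 recomputed counts were within 1.5 times the main one while 37 were not. Ratios were recomputed only for endothelial-like, monocyte/macrophage-like and T-like cells against proximal tubule-like cells, and for Atf3 and Ier3 by Havcr1. Of these recomputed ratios 182 stayed within counting error, 300 moved by more, and no ratio of at least 2-fold changed sign. Ratios of the other classes were not recomputed, and ratios within a single library were not among these. The cause of the changes was not tested, apart from the fold limit, which by construction calls fewer or more. The shares of all genes were computed for the main setting at 2-fold only. The recomputed counts therefore have no share beside them and are not read as results about the members. At 4-fold, members higher were 3 in thick ascending limb-like, 3 in distal convoluted tubule-like, 3 in collecting duct principal-like and 4 in fibroblast/pericyte-like cells, and members lower 1 in NK-like, 1 in B-like, 0 in fibroblast/pericyte-like and 0 in monocyte/macrophage-like cells. At 1.5-fold, members higher were 8 in intercalated-like and 7 in neutrophil-like cells, and members lower 1 each in thick ascending limb-like, collecting duct principal-like and intercalated-like and 2 in neutrophil-like cells. With a mitochondrial limit of 10% members lower were 1 in intercalated-like and 2 in neutrophil-like cells. In cells with a Malat1 UMI, an alternative chosen after seeing the data, members higher in collecting duct principal-like cells were 5 and members lower in neutrophil-like cells 2. With Leiden clusters members lower were 0 in NK-like, 0 in neutrophil-like and 1 in B-like cells, members highest in endothelial-like cells 8, and members 2-fold between libraries 8 in endothelial-like cells. With the first calling step alone members highest in endothelial-like cells were 9, and members 2-fold between libraries 3 in monocyte/macrophage-like cells. In thick ascending limb-like cells the latter count was 2 with a mitochondrial limit of 10% and 7 after thinning to 1000 UMIs, and in monocyte/macrophage-like cells 4 with at least 50 cells per library. Leaving out 1 library at a time, members higher ranged from 5 to 8 in collecting duct principal-like cells, and members lower from 0 to 1 in fibroblast/pericyte-like (0 without library 1) and from 1 to 2 in neutrophil-like cells (2 without library 2). Members 2-fold between libraries ranged from 3 to 5 in proximal tubule-like (3 without library 4), from 1 to 4 in thick ascending limb-like (1 without library 1), from 2 to 4 in endothelial-like and from 4 to 9 in monocyte/macrophage-like cells (4 without library 5). The count of 2 members higher with Havcr1 was the same under each alternative run, but none of these counted within a single library. Atf3 and Ier3 were both at least 2-fold higher within libraries 2 and 4. Only Atf3 was within libraries 1 and 5, and neither was within library 3. Nr4a1 in proximal tubule-like cells, and Fosb, Jun, Egr1, Atf3 and Ier3 in T-like cells, did not exceed the ambient level in any of 5 libraries.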
